A study of Arabidopsis thaliana with 12 samples.

Results

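The brightest array spots that stand for several Arabidopsis genes at once were compared between the tpt1 mutant and wild type (WT). The platform annotation assigned 870 of the 3439 spots to several genes each. After 7 of these had been set aside, 863 were ranked, and the 60 described here were chosen by the highest median deposited intensity over the 6 WT samples. Total RNA came from 6 tpt1 and 6 WT samples, numbered 1 to 6 in each group. Both groups are of the ecotype Wassilevskija, and by the labels tpt1 has lost nearly all transport of triose phosphates by its chloroplasts. The labels give no tissue, age, growth condition or treatment, nor whether samples were taken from separate plants. P-values therefore measure only the spread between these samples, which may be technical.

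The triose phosphate/phosphate translocator sits in the inner envelope of the chloroplast and exports fixed carbon to the cytosol in exchange for phosphate, by day mainly for sucrose synthesis. Where it is missing, more of the carbon is known to pass through starch and to leave the chloroplast as sugars. A spot binds any transcript close enough in sequence to its probe. Genes of a family arise by duplication and keep such stretches, often as neighbours on the chromosome, so the signal of a spot with several genes is a sum over them and names no single gene. With total RNA from whole samples, fewer cells of a type and less RNA per cell cannot be told apart.

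The deposited scale reaches from 0 to a ceiling of 100. The sum over an array was 2801 to 3547 in tpt1 and 2725 to 3456 in WT, but the median spot was brighter in tpt1, with a median log2 intensity of the spots above 0 of -1.42 to -0.88 against -2.38 to -1.72 in WT. A tpt1 array had 0 or 1 spots at the ceiling and a WT array 4 to 7. Neighbouring numbers (1 and 2, 3 and 4, 5 and 6) lay close together in both groups, and fitted as random blocks such pairs correlated at 0.627, so the 6 samples of a group may stand for fewer independent ones. No check of the labels by the level of the transporter transcript was made, since no spot carried its annotation.

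The 60 spots listed 139 genes, and all of them matched a locus in the reference table. Of the spots, 44 listed 2 genes, 13 listed 3 and 3 listed 4. At least 2 loci next to each other on the chromosome were listed by 14 of the 60 (23.3%), against 104 of all 870 spots of several genes (11.95%). All listed genes lay on 1 chromosome for 30% of the 60 and for 28.6% of the 870. The reference table named 20 of the 139 genes, in 7 spots every listed gene, in 4 spots only some of them, and in 49 spots none, so those are given by locus alone. Of 26 gene lists, the 11 given by locus (103 loci of photosynthesis, photorespiration, seed storage and a few other families) held no member of the 60. The other 15 were searches by words in gene names and also found no member, but could reach only the 20 named genes and missed the histone H3.3 spot described further on, so nothing is read from them. Whether a spot's genes form a family could be read from their names for those 7 spots only.

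The share of the array's signal that the 60 spots held was lower in tpt1 in every sample. They held 8.39%, 8.60%, 8.93%, 8.80%, 9.60% and 9.39% of the summed intensity in tpt1 1 to 6, against 13.01%, 13.3%, 13.9%, 13.7%, 14.4% and 14.2% in WT 1 to 6. The groups did not overlap, with means of 8.95 ± 0.464% in tpt1 and 13.7 ± 0.531% in WT (SD, n = 6 each), a difference of -4.80 percentage points. WT values chose the spots, so these shares are a description. The difference lay in the 4 brightest spots, a split made after a gap in the ranking had been seen. These held 4.60 ± 0.406% in tpt1 and 9.50 ± 0.660% in WT, while the other 56 held 4.35 ± 0.137% and 4.25 ± 0.156%. Of the signal of the 60 spots, the 4 brightest made up 51.3% in tpt1 and 69.0% in WT.

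**Figure D1:**
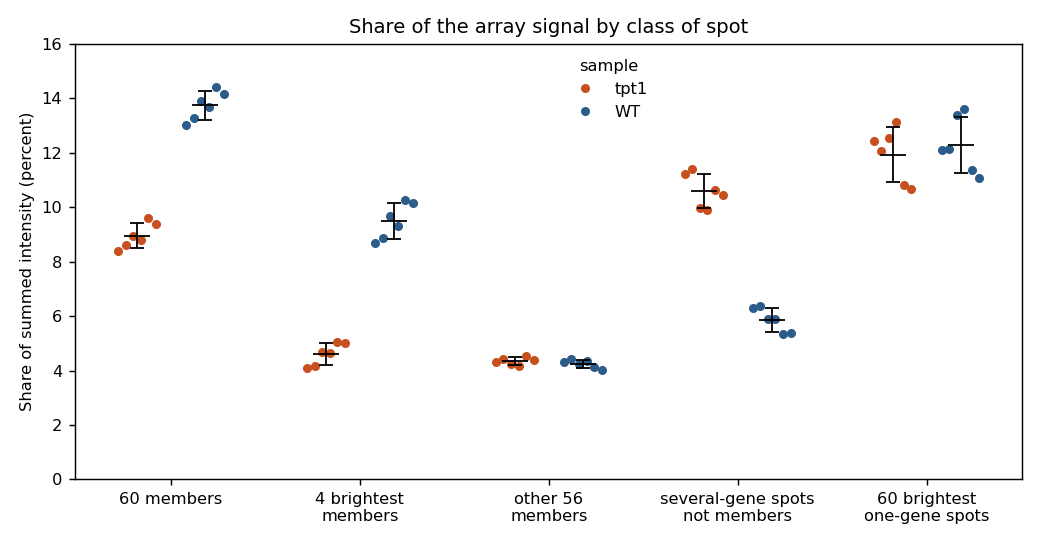
Share of the summed deposited intensity (percent, y axis) held by 5 classes of spot (x axis), one point per sample, tpt1 left and WT right in each pair, with the mean and SD as bars. The 60 spots and their 4 brightest held a smaller share in all tpt1 samples than in any WT sample, and the other 56 spots overlapped.

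Going down the ranking, the difference in share changed sign. The 8 spots ranked 5 to 12 held 1.65 ± 0.096% in tpt1 and 1.96 ± 0.152% in WT, the 18 ranked 13 to 30 held 1.26 ± 0.089% and 1.23 ± 0.031%, and the 30 ranked 31 to 60 held 1.44 ± 0.121% and 1.06 ± 0.046%. Over the 60 spots, 29 lost share in tpt1, by 5.52 points in sum, and 31 gained, by 0.722 points in sum. All spots of several genes together held 19.6 ± 0.632% of the signal in tpt1 and 19.6 ± 0.183% in WT. The 60 brightest spots annotated to a single gene held 11.9 ± 0.993% in tpt1 and 12.3 ± 1.04% in WT, and the 60 brightest with no annotated gene 29.0 ± 2.11% and 42.4 ± 1.42%. By neighbouring numbers, the difference for the 60 spots was -4.66 points in numbers 1 and 2, -4.93 in 3 and 4, and -4.80 in 5 and 6.

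The share was then compared in samples that had no part in the ranking. The ranking still used WT alone, which favours spots bright in WT and so a lower share in tpt1. The p-values below therefore hold only for spots chosen as bright in WT. Ranked on WT 1 and 2 alone, the 60 brightest spots shared 54 with those described here. In numbers 3 to 6 they held 8.95%, 8.88%, 9.37% and 9.19% of the signal in tpt1, against 13.9%, 13.7%, 14.3% and 14.03% in WT. The difference of -4.86 points, lower in 4 of 4 numbers, had a two-sided exact permutation p of 0.0286, the smallest that 4 against 4 samples allow, and the same after Benjamini-Hochberg adjustment over 6 such tests. With groups exchanged only within a number, the exact p was 0.125, again the smallest possible. Ranking on WT 3 and 4 or on WT 5 and 6 gave -4.75 points each, with an exact permutation p of 0.0286 each in the remaining samples. These rankings share samples and are not independent. Each of these tests also counts neighbouring numbers as independent samples, although they lay close together, so its p may be too small. Ranked by tpt1 medians over all samples, the difference was -4.24 points, a description without a test. Without the 4 brightest, the difference in numbers 3 to 6 was -0.0743 points (exact permutation p = 0.571).

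Set against single-gene spots ranked the same way, again on WT alone, the share of the several-gene spots was also lower in tpt1. The log2 ratio of the shares of the 60 brightest of each kind was -0.348 ± 0.186 in tpt1 and 0.187 ± 0.178 in WT (SD, n = 4 each, numbers 3 to 6), a difference of -0.53 (two-sided exact permutation p = 0.0286, lower in 4 of 4 numbers). It was -0.59 and -0.61 under the other rankings, with an exact permutation p of 0.0286 each. These tests too count neighbouring numbers as independent samples. Leaving out the 4 brightest of each kind turned the difference to 0.09 (exact permutation p = 0.371). A lower share was not particular to several-gene spots. Over all samples, the 60 brightest spots with no annotated gene held 29.0% in tpt1 and 42.4% in WT, and no ratio to them was taken.

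At the top of the ranking stood a spot annotated to CSLC12 and the neighbouring loci AT4G07950 and AT4G07940. CSLC proteins are Golgi glucan synthases that make the backbone of xyloglucan, a hemicellulose of the cell wall. The spot read 61.96, 62.9, 62.7, 63.4, 66.6 and 67.2 in tpt1 1 to 6 and sat at the ceiling of 100 in all 6 WT samples. No tpt1 reading came near the WT level, and since a ceiling reading is a lower bound the spot was at least 1.56-fold lower in tpt1. It was still the brightest several-gene spot in tpt1, so quantile normalization, which gives a rank nearly the same value on each array, set its log2 change to 0.05, against -0.64 on the deposited scale and -1.50 with arrays centred on their medians, each set against WT readings at the ceiling.

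The spot of AT5G51520 and AT4G25250 was the other one at the ceiling in all WT samples. It read 30.4, 29.0, 32.9, 34.1, 30.9 and 32.7 in tpt1 1 to 6, at least 3.16-fold below WT on the deposited scale, under the same reading of the ceiling. Its tpt1 readings were among the most even of the brightest spots, at 31.7 ± 1.91 (SD, n = 6). It alone accounted for -2.22 of the -4.80 points by which the share of the 60 spots differed.

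AT4G22850 and AT4G12000 shared the third spot. Its intensity was 17.2, 17.6, 22.5, 22.1, 32.4 and 31.8 in tpt1, against 57.3, 58.8, 59.2, 56.5, 53.1 and 53.5 in WT. The groups did not overlap, but the tpt1 samples fell into pairs by neighbouring numbers, with numbers 5 and 6 highest in tpt1 and lowest in WT. AT1G08845, AT5G27820 and AT3G20230 shared the fourth spot, which read 35.0, 36.0, 38.1, 36.5, 11.5 and 11.4 in tpt1 and 43.0, 44.2, 56.2, 47.0, 27.1 and 27.7 in WT. Here the groups overlapped, because numbers 5 and 6 were low in both, while each tpt1 sample lay below the WT sample of its number.

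**Figure D2:**
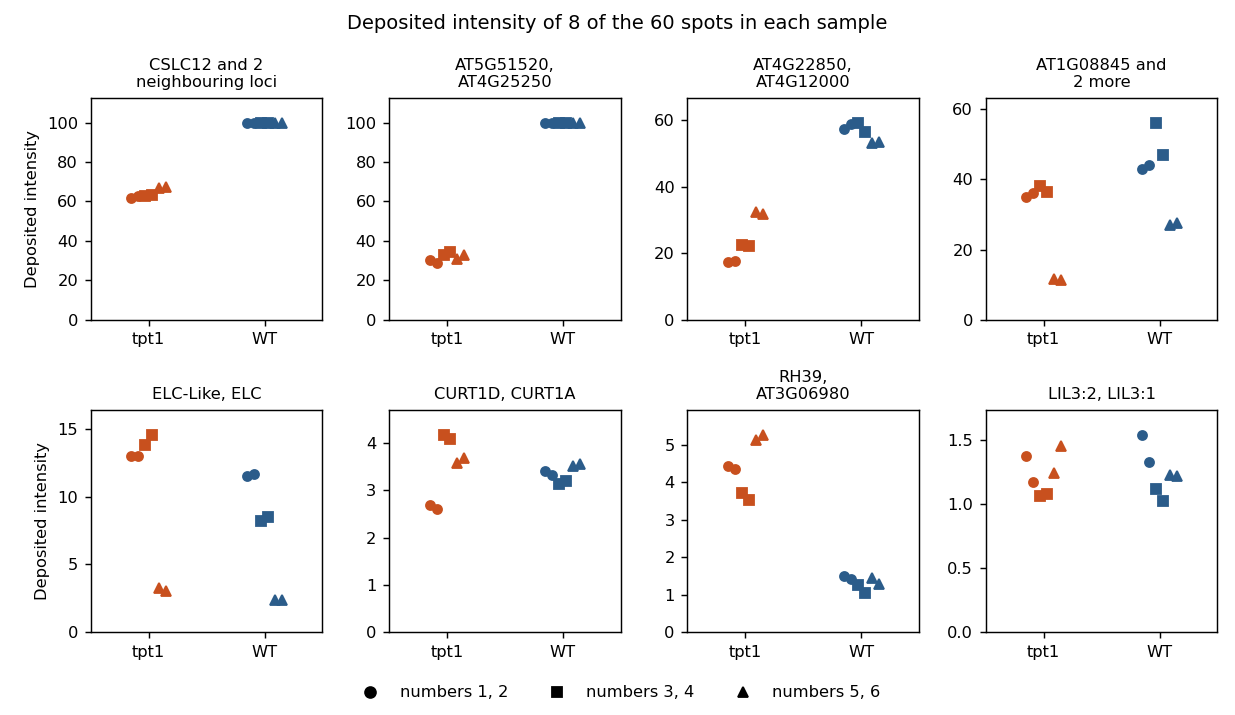
Deposited intensity (y axis, from 0) of 8 of the 60 spots in each of 6 tpt1 samples (left) and 6 WT samples (right), with symbols for neighbouring sample numbers. In the top row 3 spots separate the groups, with WT at 100 for CSLC12 and for AT5G51520, and the RH39 spot is the only one of the 8 with every tpt1 sample above WT.

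Below these 4, intensities dropped by a large step, and the spots ranked 5 to 12 had WT means of 4.83 to 11.1. The spot of AT3G66654 and AT2G47320 read 13.99, 16.2, 11.6, 11.4, 9.20 and 9.47 in tpt1 and 11.7, 12.1, 13.7, 15.9, 6.39 and 6.85 in WT. That of AT4G24026 and AT4G10810 read 5.68, 5.03, 8.21, 8.32, 10.5 and 10.05 in tpt1 and 11.2, 10.5, 10.6, 10.3, 8.03 and 7.82 in WT. In both spots the groups overlapped, and the second ran below WT in numbers 1 to 4 and above it in 5 and 6. The adjacent loci AT5G54360 and AT5G54350 gave 5.52, 5.45, 4.62, 3.85, 2.11 and 1.87 in tpt1 and 9.22, 9.31, 8.58, 8.14, 4.05 and 4.28 in WT, lower in tpt1 within every number although the ranges overlapped.

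ELC and ELC-Like, components of the ESCRT-I complex that sorts ubiquitinated membrane proteins, shared the eighth spot. It read 12.996, 13.01, 13.8, 14.6, 3.26 and 3.03 in tpt1 and 11.5, 11.7, 8.19, 8.48, 2.38 and 2.36 in WT. The tpt1 sample was the higher one in all 6 numbers, but the gap between numbers 5 and 6 and the rest was far wider than that between the genotypes. The spot of AT5G35660 and AT2G26500 read 2.79, 3.29, 5.28, 7.27, 4.99 and 4.65 in tpt1 and 6.05, 6.59, 5.60, 9.53, 9.64 and 9.60 in WT. Its tpt1 sample was the lower one in all 6 numbers, with overlapping ranges.

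The spot of AT4G00165 and AT2G45180 was the only one ranked 5 to 12 whose groups did not overlap. It read 3.82, 3.94, 3.53, 3.32, 3.05 and 3.05 in tpt1 and 6.98, 7.25, 6.07, 5.92, 7.98 and 6.90 in WT. AT1G70160, AT5G54870 and AT4G27020 gave 7.61, 7.996, 4.55, 4.15, 6.06 and 5.42 in tpt1 and 7.80, 8.75, 6.20, 6.02, 7.03 and 6.42 in WT, a little lower in tpt1 in each number. AT1G73750 and AT1G15060 gave 4.02, 3.36, 6.32, 6.69, 6.30 and 5.75 in tpt1 and 5.17, 5.11, 5.12, 5.37, 4.16 and 4.07 in WT, so that tpt1 was lower in numbers 1 and 2 and higher in the others.

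**Figure D3:**
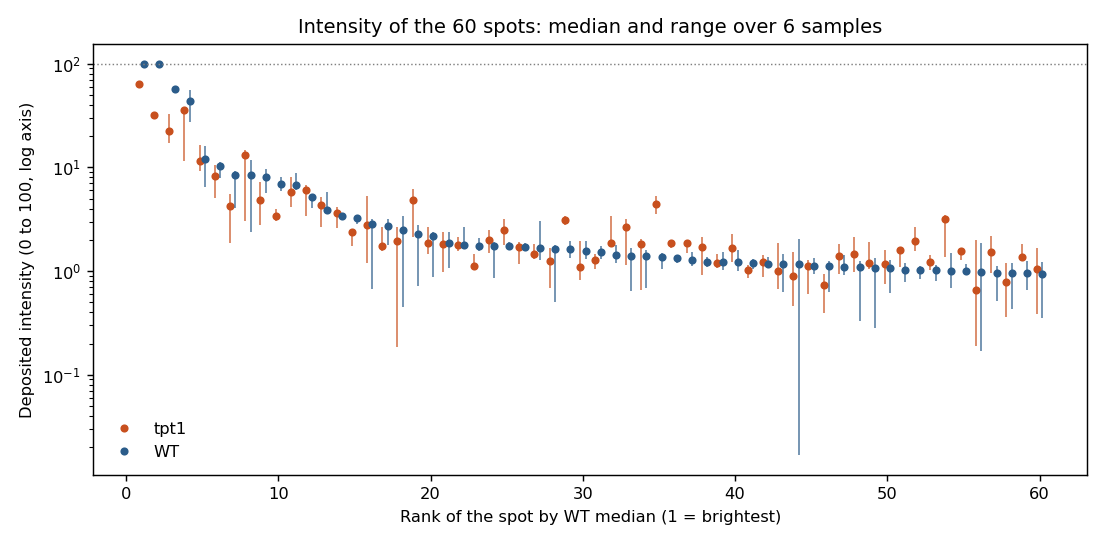
Median deposited intensity (points, log axis) and range over 6 samples (lines) of the 60 spots, in order of WT median on the x axis, tpt1 drawn left of WT. WT lies above tpt1 at the 4 brightest spots, and most tpt1 medians lie above WT from rank 31 on.

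Over all 60, the tpt1 mean was 1.06 times the WT mean in the median spot, against 1.74 times over all spots of the array with a WT mean above 0. All 4 spots ranked 1 to 4 were lower in tpt1 (median ratio 0.533), as were 5 of 8 ranked 5 to 12 (0.833) and 11 of 18 ranked 13 to 30 (0.924), while 21 of 30 ranked 31 to 60 were higher (1.29). The ranking used the WT values, so nothing is read from this order. Deposited intensities did not overlap between the groups in 6 spots with tpt1 lower, where 1.31% of all spots had that pattern, and in 7 spots with tpt1 higher, where 23.6% had it. Of the 60, 42 were also among the 60 brightest of their kind in tpt1, and the lowest tpt1 rank was 243. No member read 0 in any sample.

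Single spots were tested with limma in numbers 3 to 6 after ranking on WT 1 and 2, with the fit and the Benjamini-Hochberg adjustment over all 2781 spots tested. Of the 60 spots so ranked, 3 were higher in tpt1 (3.27% of all tested spots) and 8 lower (3.2% of all tested spots), and 49 did not pass. The ranking used WT samples alone, which favours spots bright in WT and so lower in tpt1. The counts under each ranking are therefore a description, and nothing is read from their balance against all tested spots. All 11 were among the 60 described here. The direction was counted after quantile normalization, that is, relative to the rest of the array. On the deposited scale the counts were 10 higher (36.9% of all tested) and 9 lower (2.3%), with centred arrays 0 higher (1.76%) and 23 lower (8.85%), and with the number as a block 10 higher (13.6%) and 19 lower (10.2%). Ranked on WT 3 and 4 and fitted on the other numbers, 2 were higher (2.6%) and 7 lower (2.88%), and ranked on WT 5 and 6, 6 were higher (8.74%) and 13 lower (7.27%). The rankings together left 2 spots higher and 4 lower in all 3 rankings, which share samples and are not independent.

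A spot of the DEAD-box RNA helicase gene RH39, whose product acts on chloroplast ribosomal RNA, and of AT3G06980 had the largest called rise. It read 4.43, 4.34, 3.71, 3.51, 5.13 and 5.26 in tpt1, against 1.49, 1.41, 1.26, 1.05, 1.46 and 1.30 in WT. Every tpt1 reading was above every WT reading, and the log2 change in numbers 3 to 6 was 1.74 (SE 0.27, limma adjusted p = 0.00884), with 1.78 on the deposited scale and 0.91 centred (adjusted p = 0.078). The spot of AT1G06890 and AT2G30460 read 2.78, 2.78, 2.91, 3.25, 3.24 and 3.41 in tpt1, against 1.64, 1.94, 1.62, 1.67, 1.34 and 1.39 in WT. It rose by 0.98 on the log2 scale (SE 0.12, limma adjusted p = 0.00292), but by 0.22 when centred (adjusted p = 0.477). Both passed in all 3 rankings.

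The third rise was the spot of AT1G73750 and AT1G15060 (log2 change 0.63, SE 0.11, limma adjusted p = 0.0139), which turned to -0.45 when centred and did not pass under the other rankings. Its numbers 1 and 2 went the other way, as the values above show.

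Of the 8 spots lower in tpt1 in numbers 3 to 6, that of AT5G51520 and AT4G25250 was the brightest (limma adjusted p = 0.00805). That adjusted p belongs to the quantile normalized fit, where the log2 change of this spot was -1.14 (SE 0.17). Its WT readings were all at the ceiling and have no spread of their own. The at least 3.16-fold given above is a bound on the deposited scale only, and only if a ceiling reading is a lower bound. AT4G00165 and AT2G45180 gave -0.90 (SE 0.18, limma adjusted p = 0.0218). That call did not pass without tpt1 4 (0.0552), tpt1 5 (0.0555), tpt1 6 (0.060) or WT 6 (0.0564), each an adjusted p. The adjacent loci AT4G12520 and AT4G12510 read 1.03, 1.13, 1.46, 1.33, 1.11 and 1.12 in tpt1 and 1.67, 1.57, 1.78, 2.08, 1.73 and 1.84 in WT, with no overlap and a log2 change of -0.92 (SE 0.15, limma adjusted p = 0.00992). These 3 spots were lower, and passed, on all 3 scales and in all 3 rankings. In the fit over all 6 samples a group with neighbours averaged and the set as a block, AT5G51520 and AT4G25250 did not pass (limma adjusted p = 0.0812). Nor did the spot of AT1G73750 and AT1G15060 in that fit (0.376).

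AT5G02240, AT4G31530 and AT2G37660 shared a spot of 1.08, 1.13, 1.02, 1.01, 0.996 and 0.850 in tpt1 and 1.22, 1.21, 1.32, 1.10, 1.16 and 1.05 in WT. It was lower within every number and passed in all 3 rankings (log2 change -0.76, SE 0.14, limma adjusted p = 0.0158 in numbers 3 to 6), but on the deposited scale the change of -0.25 did not pass (adjusted p = 0.162). The spot of AT3G11591, AT5G22310 and AT3G11590 read 0.906, 0.942, 0.706, 0.774, 0.425 and 0.398 in tpt1 and 1.07, 1.20, 1.24, 1.14, 0.625 and 0.722 in WT, lower within every number. Its log2 change was -1.33 (SE 0.23, limma adjusted p = 0.0141), and -0.70 on the deposited scale (adjusted p = 0.104). This spot was not among the 60 brightest when ranked on WT 5 and 6, so it does not count as passing in all 3 rankings.

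The remaining 3 lower spots passed in numbers 3 to 6 but not in all rankings. They were those of AT4G05630 and AT4G05620 (log2 change -0.76, limma adjusted p = 0.0144), of AT3G50190 and AT3G50140 (-1.10, 0.00523), and of AT1G50660, AT1G11690 and AT3G20350 (-0.91, 0.0196). The last was below WT in numbers 3 to 6 only, at 1.30, 1.41, 1.40 and 1.49 in tpt1 against 3.02, 2.98, 1.63 and 1.52 in WT, while in numbers 1 and 2 it read 1.80 and 1.80 in tpt1 against 1.28 and 1.70 in WT. The spot of AT3G50190 and AT3G50140 read 1.87 and 1.95 in tpt1 1 and 2, against 1.70 and 1.96 in WT. None of these 3 spots passed with neighbours averaged and the set as a block (limma adjusted p = 0.0587, 0.0573 and 0.124). The spots called in numbers 3 to 6 that are not named as failing this fit passed it.

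In the fit over all 6 samples a group, 5 of the 60 spots were called higher in tpt1 (6.39% of all 2849 tested) and 12 lower (6.39% of all tested), with 43 not called. WT values of these samples chose the spots, so the counts stand as a description. The median log2 change of the 60 was -0.11, against 0.08 over all tested spots. On the deposited scale it was 0.10, beside 0.86 for all tested spots, and with centred arrays -0.77, beside 0.00. On the deposited scale 16 were called higher (46.4% of all tested) and 8 lower (2.56%), and with centred arrays 1 higher (4.67%) and 33 lower (12.5%). With the sample number as a block, 9 were called higher (17.5%) and 24 lower (14.3%). With neighbouring numbers as a random block 3 were called higher (1.65%) and 6 lower (2.63%), and with neighbours averaged and the set as a block 5 higher (6.88%) and 9 lower (5.44%).

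**Figure D4:**
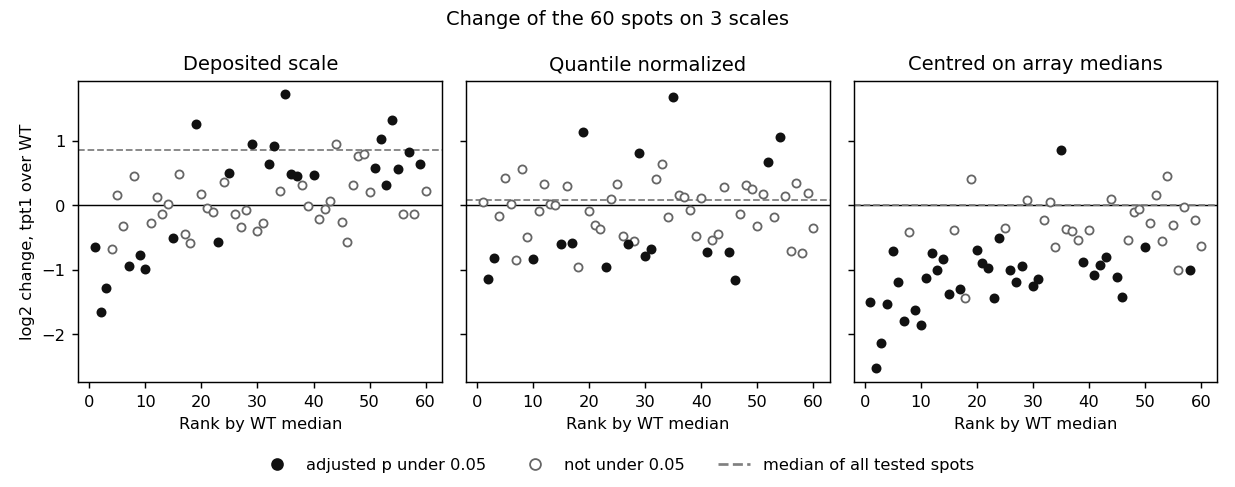
Log2 change of tpt1 over WT (y axis) of the 60 spots by rank of WT median (x axis), on the deposited scale, after quantile normalization and with arrays centred on their medians. Filled points have a limma adjusted p under 0.05 in the fit of 6 against 6 samples, and the dashed line is the median of all tested spots, at 0.86, 0.08 and 0.00.

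Among the 5 largest rises in that fit were 3 spots not yet described. AT5G58990 and AT5G52370 had a deposited intensity of 4.43 ± 1.39 in tpt1 and 1.96 ± 0.860 in WT, AT5G53270 and AT5G53260 had 2.71 ± 0.941 and 1.05 ± 0.290, and AT1G52550 and AT3G15780 had 2.06 ± 0.468 and 0.998 ± 0.115 (SD, n = 6 each). Each was higher in tpt1 in all 6 numbers, and only in the last did the ranges not overlap. AT5G03560 and AT4G38150, among the 5 largest falls, had 1.59 ± 1.08 in tpt1 and 2.09 ± 1.29 in WT, where numbers 3 and 4 read 0.316 and 0.184 in tpt1 and 0.542 and 0.449 in WT. All other readings of that spot were 1.90 or higher, so its spread over numbers was wider than the step between genotypes. Within each of the 6 numbers it was lower in tpt1. In numbers 3 to 6 it passed as lower with the number as a block (limma adjusted p = 0.0134), but not without it (0.533).

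The spots whose genes the reference names were looked at after their values had been seen. Besides the CSLC12 spot, CSLC5, CSLC6 and CSLC8 shared a spot, which stood at 1.59 ± 0.332 in tpt1 and 1.72 ± 0.064 in WT and overlapped. The spot of CURT1A and CURT1D, proteins that bend the thylakoid membrane at the margins of grana, read 3.46 ± 0.677 in tpt1 and 3.35 ± 0.174 in WT. LIL3:1 and LIL3:2, light-harvesting-like proteins needed for chlorophyll synthesis, shared a spot at 1.23 ± 0.156 in tpt1 and 1.24 ± 0.178 in WT. Neither chloroplast spot passed in numbers 3 to 6 without a block (limma adjusted p = 0.442 and 0.263). With the number as a block the LIL3 spot passed as lower (limma log2 change -0.39, adjusted p = 0.0252), and that of CURT1A and CURT1D did not (0.193). The spot of ELC and ELC-Like passed as higher with that block (limma log2 change 0.63, adjusted p = 0.0217), but not without it (0.584).

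Of the named regulators, ALC and SPT, bHLH transcription factors of carpel and fruit development, shared a spot at 1.80 ± 0.485 in tpt1 and 1.82 ± 0.432 in WT. UFO, an F-box protein of floral patterning, was listed with AT5G15710 on a spot at 1.26 ± 0.167 in tpt1 and 1.52 ± 0.158 in WT, lower in tpt1 in all 6 numbers. The 3 genes of the replacement histone H3.3 shared a spot at 0.995 ± 0.316 in tpt1 and 1.14 ± 0.153 in WT. None of these 3 passed in numbers 3 to 6 without a block (limma adjusted p = 0.62, 0.101 and 0.167). With the number as a block the UFO spot passed as lower (limma log2 change -0.70, adjusted p = 0.0019), and the spots of ALC and SPT and of H3.3 did not (0.196 and 0.0749). PHOS32 and PHOS34, a pair of phosphoproteins, gave 1.38 ± 0.412 in tpt1 and 0.901 ± 0.467 in WT, and 4CL8, named as a 4-coumarate:CoA ligase, with AT1G20500 gave 1.52 ± 0.510 in tpt1 and 0.861 ± 0.279 in WT. Both were higher in tpt1 in all 6 numbers, and neither passed in numbers 3 to 6 (limma adjusted p = 0.648 and 0.638, and 0.333 and 0.152 with the number as a block).

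The deposited values of these spots varied with sample number as well as with genotype. Over the 60 spots the median range of the means of neighbouring numbers was 0.57 on the log2 scale, the median difference between the genotypes 0.45, and the median difference between neighbours 0.12. The range over numbers was the larger one in 38 of the 60 spots (63.3%), against 48.1% of the 2383 spots above 0 in all samples. Over those 2383 spots the median range was 0.75 and the median genotype difference 0.87. A range over several means tends to exceed a single difference, so the measures are not alike and their sizes are not ranked here. In all 6 numbers 18 spots were higher in tpt1, 15 were lower and 27 were mixed. Over all 3439 spots of the array, those with zeros included, 55.3% were higher in all numbers and 3.40% lower. What the numbers stand for is not in the labels, and their part in the single results was not tested beyond the block.

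Other spots of the array listed the same genes as some of the 60. Of these, 26 shared a listed gene with 27 further spots, none of them among the 60, and 26 of the 27 had a WT mean under 1. The exception was a spot of AT4G31530 alone, at 52.0 ± 8.94 in tpt1 and 30.3 ± 8.49 in WT, against 1.02 ± 0.095 and 1.18 ± 0.095 for the spot it shares with AT5G02240 and AT2G37660. Probes differ in how well they bind, so these readings are not amounts of transcript. In 11 pairs both spots listed exactly the same genes. The mean of the other spot was higher in tpt1 in 10 of the 11 pairs and that of the bright one in 7, and in 5 pairs the directions were opposite. These are deposited means. Over all spots with a WT mean above 0, the tpt1 mean was 1.74 times the WT mean in the median spot, so nothing is read from these counts. Among those 5 are AT1G73750 and AT1G15060, whose other spot is listed at 0 in 5 of 6 tpt1 and 4 of 6 WT samples and so gives no direction. The LIL3 pair is also among them, and its bright spot had nearly equal means of 1.23 in tpt1 and 1.24 in WT. The CSLC12 spot, at 64.1 in tpt1 and 100 in WT, had a counterpart that listed the same 3 loci and 1 more and read 0.259 ± 0.091 in tpt1 and 0.139 ± 0.081 in WT. The annotation does not say which transcript each spot reads.

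**Figure D5:**
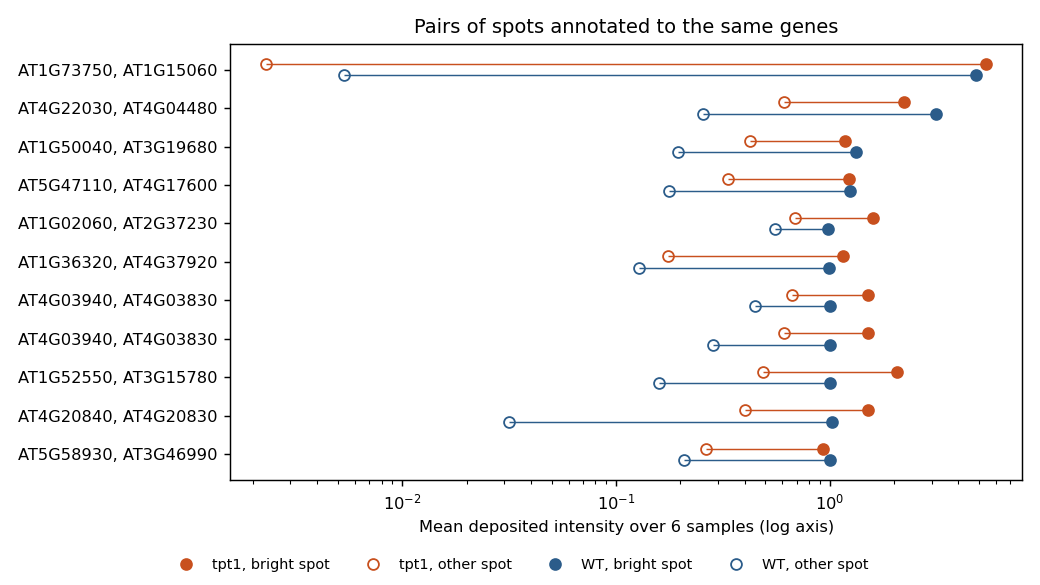
Mean deposited intensity (log axis) over 6 samples of the 11 pairs of spots that list exactly the same genes, tpt1 drawn above WT, with a filled point for the spot among the 60 and an open point for the other. The ranking chose the brighter spot of each pair, so only the direction of tpt1 against WT within a spot can be compared. It was opposite in 5 of the 11 pairs, 1 of which has its open points near 0. Over all spots with a WT mean above 0, the tpt1 mean was 1.74 times the WT mean in the median spot.

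The end of the ranking was shallow. Spots 59 and 60 had WT medians of 0.95 and 0.94, and spots 61 and 62, just outside, 0.93 and 0.91.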

How the data were processed

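The authors deposited 1 intensity per spot for each of 12 arrays, on a linear scale from 0 to 100. Scanning, background correction and scaling are not given in the sources used here, so a 0 may be an absent signal or a value set to 0. Groups and numbers came from the sample titles. The members and gene lists were chosen with earlier results of these data known.

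Shares were taken on the deposited scale. For tests of single spots, zeros were set as missing, values were taken as log2 and quantile normalized, spots needed 4 values above 0 in each group (3 in numbers 3 to 6), and limma 3.58.1 (lmFit, eBayes with trend; R 4.3.3) was fitted over all spots with Benjamini-Hochberg adjustment and a threshold of 0.05. With group means taken out, the tpt1 and WT samples of a number correlated at 0.467 to 0.609 over 2383 spots, and all 12 correlated best with their own number, so the numbers pair the samples by a rule of a correlation over 0.1 in every pair. The main fits have no block. The number of arrays limits the precision.

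Loci and names came from the platform annotation through a reference table of assembly TAIR10.1, used for names and gene order only. Spots named were the 12 brightest, the 5 spots with the highest and the 5 with the lowest log2 change, and spots 59 to 62, and any that a gene list held. The spots of reference-named genes, and those called in numbers 3 to 6, were added after their values were seen. Sequences of the probes and proteins are not used here. Alternatives were the scale, centring, filter, pseudocount, number block, random block, threshold, number of members, ranking samples, denominator and leaving out each sample. Those on averaged neighbours, on the 4 brightest, on ceiling members and on the single-spot tests under other rankings were chosen after seeing the data. Python 3.11.15 and matplotlib 3.10.9 made the plots.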

Additional observations from a re-analysis of the deposited data

Results flagged for a closer look

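In 2 of 66 groups of 6 values, a sample stood apart from the other 5 by Dixon's test at the 95% level, where chance gives about 1 in 20, or 3.3 groups. The spots ranked 13 to 30 held 1.29% of the summed intensity in WT 5, while the others of that group lay at 1.21% to 1.24%. The spot of CSLC5, CSLC6 and CSLC8 (AT4G31590, AT3G07330 and AT2G24630) read 1.84 in WT 6, while the others of that group lay at 1.65 to 1.72. That spot did not pass in numbers 3 to 6 (limma adjusted p = 0.398), and the share was not tested.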

How the results depend on the processing

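Around the main difference in share of -4.80 points, the alternatives gave -4.24 points ranked by tpt1 medians and -4.07 with 120 members. They gave -2.53 without ceiling spots, -1.38 without the ceiling members, -24.3 as a share of several-gene spots and -2.30 quantile normalized. Leaving out a sample gave -4.94 to -4.66. Without the 4 brightest in members and sum the difference was -0.134, where the pooled SD between samples of a group was 0.147. With the 4 brightest kept in the sum, the other 56 spots differed by 0.101 points, in the other direction. In numbers 3 to 6 it was -4.96 to -4.76 leaving out a sample, -4.86 with the replicate block (exact p = 0.125), and -0.0743 without the 4 brightest (exact permutation p = 0.571). The log2 ratio to single-gene spots was -0.59 to -0.47 leaving out a sample, -0.53 with the block (exact p = 0.125) and turned to 0.0939 without the 4 brightest of each kind (exact permutation p = 0.371).

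Calls of tpt1 higher and lower over all samples (5 and 12) became 16 and 8 on the deposited scale, 1 and 33 centred, 9 and 24 with the number as a block, 3 and 6 with neighbours as a random block (1.65% and 2.63% of all tested), 2 and 5 at a threshold of 0.01, and 3 and 8 ranked on WT 1 and 2. Leaving out a sample gave 4 to 5 and 9 to 12. In numbers 3 to 6 (3 and 8) they became 10 and 9 deposited, 0 and 23 centred, 10 and 19 with the block, 6 and 13 ranked on WT 5 and 6, and 3 to 5 and 7 to 9 leaving out a sample, with the 5 without tpt1 5. The median change was 0.10 deposited and -0.77 centred. The CSLC12 spot turned to -0.64 (adjusted p = 0.000343) deposited and -1.50 (0.000128) centred, against WT readings at the ceiling. Centring also turned the spots of AT3G66654 and AT2G47320 to -0.70 (0.00659), AT4G24026 and AT4G10810 to -1.19 (0.00445), and AT1G73750 and AT1G15060 to -0.74 (0.0429). The cause was not tested.

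Intensities at the ceiling are at most bounds on the deposited scale. A several-gene spot cannot be divided among its genes, and neighbouring numbers resembled each other more than independent samples are assumed to. No value of the transporter transcript was analysed here.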
